A study of Saccharomyces cerevisiae with 83 samples.

Results

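The 7 genes of histidine synthesis (HIS1 to HIS7) and GCN4, the activator of amino acid synthesis genes, were followed as barcoded plasmids in growing yeast. They are 8 of the 4872 names in each of the deposited tables of barcode counts. They were chosen by their systematic names, in medium without histidine, at a time when their changes from generation 0 to generation 5 or 10 were already known. Those changes are therefore given as descriptions. The comparisons between strains and of the rate over time are computed from these same changes, so their p-values are descriptions too. The comparison between starting pools uses the generation 0 levels, which also enter each change, so its p-values are descriptions as well.

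Haploid cells of the wild YPS1009 background of Saccharomyces cerevisiae, each with a low-copy centromeric (CEN) plasmid that carries 1 gene and a barcode, were grown as pools. The study asked how an added copy of each gene affects growth in euploid strains and in aneuploid haploids that have gained chromosome IV, VII, XII or XV, each with or without the RNA-binding protein gene SSD1. Plasmid DNA was recovered at generation 0, which was the thawed frozen stock, and after 5 or 10 generations, and the barcodes were amplified and sequenced. In all groups the medium lacked histidine and held nourseothricin (100 mg per L), which keeps the amplified chromosomes, and G418 (200 mg per L), which keeps the plasmids.

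Batch 1 held strains AGY1611, AGY1612, AGY1613 and AGY1614 at generations 0 and 10, with 4 replicate cultures each, named A to D. Batch 2 held 3 replicate cultures of each of 7 strains. Of these, 3 strains (AGY1611, AGY1613, AGY1860) were harvested at all of generations 0, 5 and 10. Another 3 (AGY1859, AGY1862, AGY1863) have no generation 5 library, and AGY1861 has none of generation 10. The labels do not pair the strain numbers with a karyotype, an SSD1 state or a histidine genotype, so strains are named by number. Per the design text, the cultures of batch 1 came from 2 transformations of the library and those of batch 2 from 3. The labels do not say which cultures of batch 1 share a transformation. P-values of the joint fits set a change against a spread between cultures that each barcode shares over all strains and generations of a batch. Replicates differed less at generation 0 than at generation 10, so this is not the spread of the compared libraries alone. The fits also count cultures of batch 1 that resemble each other as separate replicates.

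Histidine is made from phosphoribosyl pyrophosphate (PRPP) and ATP in a linear pathway whose first enzyme, encoded by HIS1, is inhibited by its end product. The following steps are carried out by the products of HIS4, HIS6, HIS7, HIS3, HIS5 and HIS2, and the multifunctional HIS4 protein also carries out the last step. When amino acids run short, the kinase Gcn2 phosphorylates eIF2, translation of GCN4 mRNA goes up, and Gcn4 activates genes of many amino acid pathways, the HIS genes among them.

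The genes lie on 6 chromosomes. HIS1 (YER055C, 894 bp) and GCN4 (YEL009C, 846 bp) are on chromosome V, and HIS5 (YIL116W, 1158 bp) and HIS6 (YIL020C, 786 bp) are on chromosome IX. HIS2 (YFR025C, 1008 bp) is on chromosome VI, HIS4 (YCL030C, 2400 bp) on chromosome III and HIS7 (YBR248C, 1659 bp) on chromosome II. HIS3 (YOR202W, 663 bp) is on chromosome XV, and is the only member on a chromosome that the design names as amplified.

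Libraries held 1298424 to 8351355 counts at generation 0 and 452054 to 5409233 counts at generations 5 and 10. Levels below are counts per 1000000 (CPM) after TMM scaling, which sets each barcode against the bulk of the pool. A barcode count does not scale with the length of the gene. In batch 1, cultures A and B of a strain resembled each other, as did C and D. Over 4615 barcodes, the log2 changes from generation 0 to 10 correlated at 0.87 to 0.96 within these sets and at 0.43 to 0.68 between them. The 4 cultures of a strain in batch 1 are therefore also described as the sets A and B, and C and D. A comparison is described as called where the edgeR quasi-likelihood test gave a Benjamini-Hochberg adjusted p under 0.05. Statements that groups did not overlap, or that cultures ended above or below a starting range, only describe the values printed. The share of all barcodes that did the same was not computed, so these statements do not set a member apart.

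The starting pools held 7 of the 8 plasmids at common levels and HIS7 near the limit of detection. In the 16 generation 0 libraries of batch 1, the HIS1 barcode was at 451 CPM ± 14.8 (SD), GCN4 at 373 CPM ± 12.5, HIS4 at 243 CPM ± 11.5 and HIS3 at 232 CPM ± 14.7. HIS6 was at 188 CPM ± 8.22, HIS5 at 149 CPM ± 7.07 and HIS2 at 145 CPM ± 10.6. The median over all names was 175 CPM. HIS7 was at 1.74 CPM ± 0.652, which was 5 to 20 counts per library.

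The 21 generation 0 libraries of batch 2 gave the same order except at HIS3 and HIS4. There HIS1 was at 427 CPM ± 18.6 (SD), GCN4 at 373 CPM ± 19.5, HIS3 at 240 CPM ± 29.4, HIS4 at 238 CPM ± 14.2 and HIS6 at 189 CPM ± 11.3. HIS5 was at 160 CPM ± 6.05, HIS2 at 119 CPM ± 23.8 and HIS7 at 1.6 CPM ± 0.556. HIS3 and HIS4 lay within their spread of each other in both batches, as did HIS5 and HIS2 in batch 1.

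Apart from the rare HIS7, HIS2 and HIS3 varied most between the starting pools of batch 2. HIS2 was at 136, 153 and 135 CPM in AGY1611 and at 140, 156 and 145 CPM in AGY1613, but at 122, 79.6 and 90.3 CPM in AGY1860 and at 80.4, 90.9 and 139 CPM in AGY1859. HIS3 was at 305, 273 and 268 CPM in AGY1863, against 211, 222 and 228 CPM in AGY1611. So the HIS3 values of AGY1863 lay above all 3 of AGY1611. The difference between strains was tested on the generation 0 libraries alone, a fit added after the data were seen, because in the joint fit the spread of the later generations sets the error. For HIS3 it gave an adjusted p of 0.312 (p 0.0197) and for HIS2 an adjusted p of 0.354 (p 0.0314) in edgeR. No member was called in either batch, where 0.0% of all barcodes were. At an unadjusted p under 0.05 there were 2 members in batch 2 and 0 in batch 1, and DESeq2 on all libraries called 0.

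**Figure D1:**
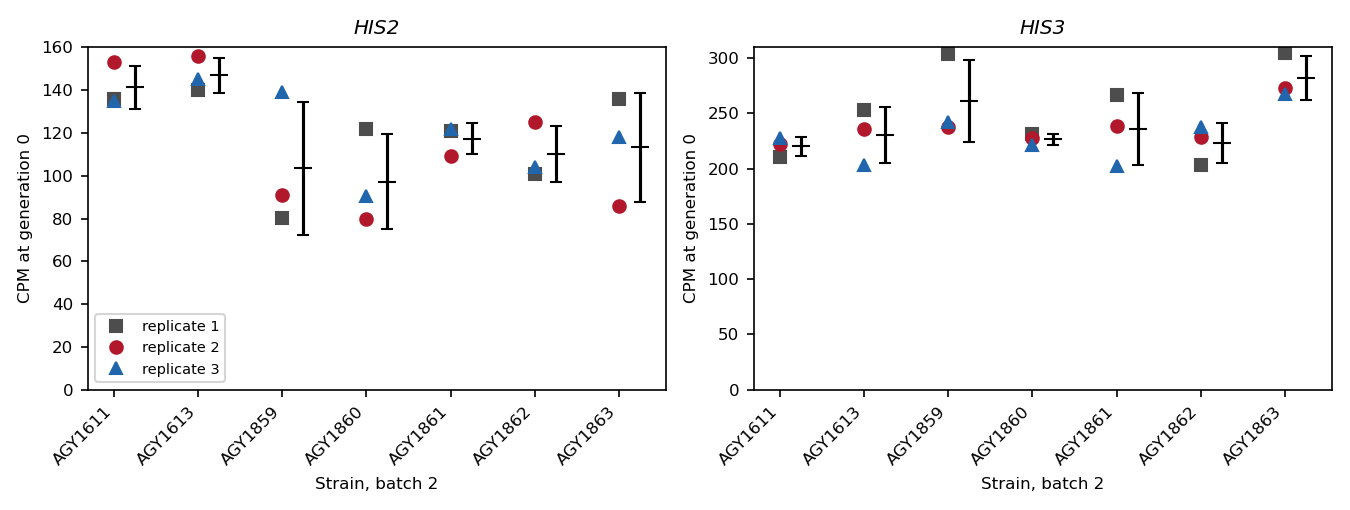
HIS2 (left) and HIS3 (right) barcodes in CPM at generation 0 in the 7 strains of batch 2. Each point is 1 library, marked by replicate, and black bars give the mean ± SD of 3 libraries; HIS2 ran from 79.6 to 156 CPM and HIS3 from 202 to 305 CPM.

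From generation 0 to generation 10 the HIS3 plasmid was the member that gained most. It was higher in 33 of 34 cultures, with a median log2 change of 0.95 and a range of -0.01 to 2.94. Changes per culture set a later library against the generation 0 library of the same replicate name. That pairing showed in the data only in AGY1859, AGY1860 and AGY1863, so elsewhere the counts of cultures depend on the names. HIS2 was lower in 30 of the 34 cultures, with a median of -0.90. The other members with common barcodes went either way: HIS4 was higher in 27 cultures (median 0.33), GCN4 in 24 (0.31), HIS6 in 23 (0.26), HIS5 in 21 (0.05) and HIS1 in 18 (0.11). Of 4547 barcodes tested in both batches, 0.946% were higher in all 34 cultures, 2.33% were higher in at least as many as HIS3, and 5.87% were lower in all. HIS2 was higher in 4 cultures, and 86.0% of barcodes were higher in at least as many. For HIS4 the share higher in at least as many cultures was 17.2%, for GCN4 27.8%, for HIS6 31.9%, for HIS5 38.4% and for HIS1 47.6%.

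The number of members called at generation 10 ran from 0 to 5 over the strains. HIS7 did not pass the filter on low counts, so 7 members were tested. In batch 1 the calls were 2 in AGY1611 (47.8% of all barcodes were called), 1 in AGY1612 (43.1%), 1 in AGY1613 (40.8%) and 5 in AGY1614 (53.1%). In batch 2 they were 1 in AGY1611 (18.9%), 1 in AGY1613 (11.4%), 2 in AGY1859 (14.5%), 0 in AGY1860 (21.0%), 1 in AGY1862 (18.2%) and 1 in AGY1863 (17.5%). HIS3 accounted for 8 of these 15 calls. With the counts of cultures A and B summed, and likewise those of C and D, these 7 members had 3 of their 9 calls left in batch 1, which were HIS3 in AGY1611 and AGY1614 and HIS4 in AGY1614. The log2 changes of the other 6 were about as large as before, at 0.84 and 0.89 for GCN4 in AGY1611 and AGY1614, 0.83 for HIS1 and -1.31 for HIS2 in AGY1614, and 0.83 and 1.12 for HIS3 in AGY1612 and AGY1613. With summed cultures, 9.69% to 26.6% of all barcodes were called in these strains. In fits to the 2 generations of a strain alone, HIS3 in AGY1611 of batch 2 (1.59), HIS2 in AGY1859 (-1.46), HIS4 in AGY1862 (1.16) and GCN4 in AGY1611 of batch 1 (0.79) were not called. These fits added HIS2 in AGY1611 of batch 1 (-0.69) and of batch 2 (-1.09). In batch 1 they also added HIS4 (0.31) and GCN4 (0.44) in AGY1612, HIS6 (0.69) and GCN4 (0.41) in AGY1613, and HIS6 (0.68) in AGY1614. DESeq2 called 10 of 28 in batch 1 (43.6% to 56.8% of all barcodes over the strains) and 8 of 42 in batch 2 (13.8% to 23.8%). It added HIS6 in AGY1614 (DESeq2 adjusted p = 0.0497), and in batch 2 HIS2 in AGY1613 (0.0427) and HIS5 in AGY1863 (0.0403).

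**Figure D2:**
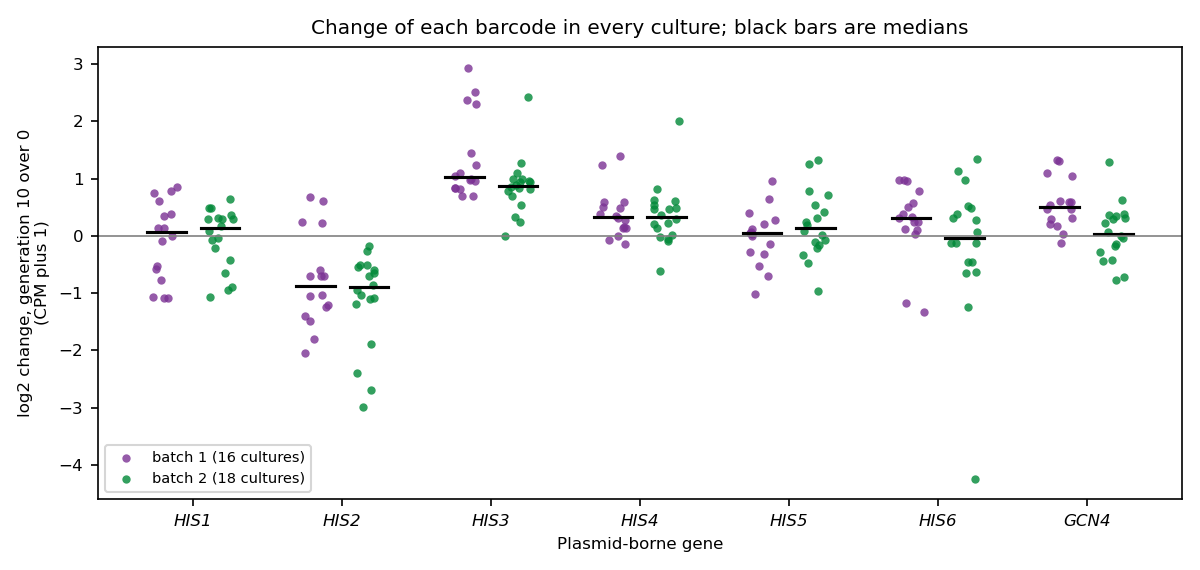
Log2 change from generation 0 to 10 (CPM plus 1) of 7 members, 1 point per culture, in batch 1 (16 cultures) and batch 2 (18 cultures), with black bars at the medians. HIS3 lies above 0 in all but 1 culture, HIS2 lies below 0 in 30 of 34, and the other members spread to both sides of 0; HIS7, which was mostly at 0 counts after growth, is left out.

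HIS1 encodes ATP phosphoribosyltransferase, which catalyses the first and regulated step. In AGY1614 its barcode went from 479, 462, 462 and 444 CPM to 730, 841, 774 and 768 CPM, so all 4 cultures at generation 10 were above all 4 at generation 0. The fitted log2 change was 0.75 (SE 0.26), and HIS1 was called in no other strain. With library size alone in place of TMM it was 0.23 and not called. In the other strains of batch 1 the sets of cultures moved apart. In AGY1613, A and B ended at 201 and 214 CPM and C and D at 563 and 589 CPM, from 426 to 454 CPM at the start. In AGY1611 it was C and D that ended low, at 208 and 259 CPM, while A and B ended at 513 and 453 CPM.

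In batch 2 HIS1 ended within 203 to 645 CPM. The AGY1860 cultures ended at 567, 597 and 521 CPM and the AGY1862 cultures at 611, 645 and 441 CPM, all above the generation 0 levels of their strain. The fitted log2 changes of the 6 strains were between -0.41 and 0.43 (SE 0.24 each), and none was called.

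HIS4 encodes the multifunctional enzyme of early steps and of the last step, histidinol dehydrogenase. In AGY1614 its barcode went from 246, 238, 236 and 225 CPM to 578, 627, 332 and 339 CPM. All 4 cultures ended above the starting range, and A and B ended above C and D. The fitted log2 change was 1.00 (SE 0.17), or 1.99-fold. In the other strains of batch 1 the fitted changes were 0.15 to 0.28 (SE 0.17 each).

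In batch 2 HIS4 was called only in AGY1862, where it went from 236, 251 and 228 CPM to 329, 1010 and 267 CPM. The fitted log2 change there was 1.16 (SE 0.30). It rested on replicate 2, and HIS4 in AGY1862 was not called without that library. In the other 5 strains HIS4 ended between 146 and 424 CPM, and its fitted changes were 0.15 to 0.52.

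HIS6 encodes the isomerase that follows the steps of HIS1 and HIS4, and the joint edgeR fit called it in no strain. In AGY1611 of batch 1, A and B went from 172 and 183 CPM to 75.2 and 72.4 CPM, whereas C and D went from 189 and 187 CPM to 282 and 267 CPM. The mean log2 change was thus -1.26 in the first set and 0.54 in the second. Fitted changes of 0.69 (SE 0.29) in AGY1613 and 0.62 (SE 0.30) in AGY1614 came closest to a call, and were called in 6 and 3 of the 32 fits that left out a library of batch 1. Fits to each of these strains alone called both, with edgeR adjusted p-values of 0.0211 and 0.0145.

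The widest spread of HIS6 in batch 2 was in AGY1859. There it ended at 302 and 139 CPM in replicates 1 and 2 and at 8.53 CPM in replicate 3, after 216, 192 and 179 CPM at the start. The log2 change of replicate 3 was -4.24, the lowest of any member in any culture. AGY1863 ended at 113, 127 and 130 CPM, below its starting levels of 177, 197 and 178 CPM, whereas AGY1613 ended at 228, 401 and 222 CPM, above its 188, 183 and 179 CPM. Over the 18 cultures of batch 2, HIS6 was higher in 9 and lower in 9.

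HIS7 encodes imidazole glycerol phosphate synthase, which joins the pathway to purine synthesis through its by-product. Its plasmid was rare from the start and was mostly not seen after growth. At generation 10 it had 0 counts in 13 of 16 libraries of batch 1 and in 17 of 18 of batch 2, and at generation 5 in 9 of 12. The other libraries had at most 4 counts. A count of 0 allows up to 1.0 to 6.57 CPM in the generation 10 libraries of batch 1, from the deepest to the shallowest, and 0.856 to 5.34 CPM in those of batch 2. Since these limits of single libraries reach the starting level of 1.74 and 1.6 CPM, no fold is given. Pooled over all libraries of a time, without TMM scaling, HIS7 in batch 1 went from 1.85 CPM (173 counts) to 0.123 CPM (4 counts) at generation 10. In batch 2 the pooled level went from 1.72 CPM (168 counts) to 0.134 CPM (4 counts). Without the filter on low counts, HIS7 was called lower at generation 10 in 4 of 4 strains of batch 1 and 4 of 6 of batch 2, and at generation 5 in 1 of 4. In those fits 41.0% to 52.3%, 10.8% to 20.4% and 0.0% to 6.86% of all barcodes were called.

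HIS3 encodes imidazoleglycerol-phosphate dehydratase, whose gene is also widely used as a plasmid marker. In AGY1611 of batch 1 its barcode went from 236, 218, 224 and 243 CPM to 1170, 1130, 437 and 434 CPM. In AGY1614 it went from 257, 241, 211 and 205 CPM to 1470, 1860, 575 and 360 CPM. Every culture ended above the starting range, and in both strains A and B ended far above C and D. The mean log2 change of AGY1611 was 2.34 in A and B and 0.90 in C and D, and that of AGY1614 was 2.72 and 1.13.

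The other strains of batch 1 gave a smaller and more even gain of HIS3. AGY1612 went from 230, 251, 240 and 230 CPM to 473, 404, 388 and 409 CPM. AGY1613 went from 214, 233, 244 and 235 CPM to 502, 502, 490 and 463 CPM. In both strains the groups did not overlap, and the sets differed little, with mean log2 changes of 0.86 and 0.76 in AGY1612 and of 1.17 and 0.99 in AGY1613. The fitted log2 changes were 1.78 (SE 0.32) in AGY1611, 0.81 (SE 0.32) in AGY1612, 1.08 (SE 0.32) in AGY1613 and 2.23 (SE 0.33) in AGY1614. HIS3 was called in all 4, with a mean of 1.48 that ranked 26 from the highest among 4615 barcodes. Of these barcodes, 203 were called higher in every strain of batch 1.

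**Figure D3:**
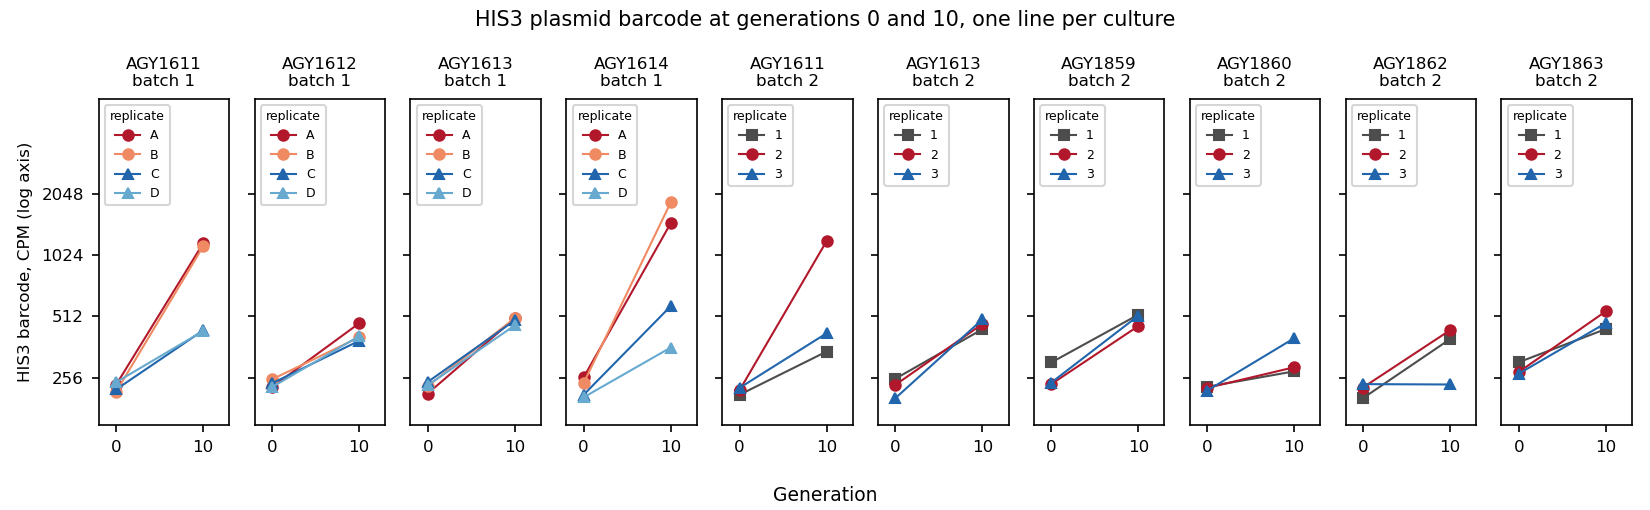
HIS3 barcode in CPM (log axis) at generations 0 and 10 in 10 panels, 1 per strain and batch, with a line for each culture. In batch 1, AGY1611 and AGY1614 have 2 cultures (A and B) at 1130 CPM or more at generation 10, and in batch 2 only replicate 2 of AGY1611 is as high; all other cultures end at or below 575 CPM.

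In batch 2, AGY1611 again had a culture with a large gain of HIS3. Its replicates went from 211, 222 and 228 CPM to 344, 1200 and 423 CPM. AGY1613 went from 253, 236 and 203 CPM to 443, 470 and 495 CPM. AGY1859 went from 304, 238 and 242 CPM to 522, 459 and 516 CPM. The groups did not overlap in any of the 3 strains, and their fitted log2 changes were 1.58 (SE 0.29), 1.03 (SE 0.28) and 0.93 (SE 0.28).

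AGY1863, the strain that began with the most HIS3, went from 305, 273 and 268 CPM to 444, 543 and 475 CPM. AGY1860 went from 231, 228 and 221 CPM to 275, 288 and 400 CPM. AGY1862 went from 203, 229 and 238 CPM to 396, 438 and 237 CPM. Its replicate 3 was the only culture in which HIS3 did not gain over the generation 0 library of the same name. That pairing did not show in the data of AGY1862, and 237 CPM was above the 203 and 229 CPM of the other replicates at generation 0. Among these 3 strains the groups overlapped in AGY1862 only. The fitted log2 changes were 0.79 (SE 0.28) in AGY1863, 0.50 (SE 0.28) in AGY1860 and 0.67 (SE 0.28) in AGY1862. HIS3 was called in AGY1611, AGY1613, AGY1859 and AGY1863, and its mean of 0.92 over the 6 strains ranked 68 from the highest among 4579 barcodes.

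In the strains measured in both batches the fitted log2 change of HIS3 was 1.78 and 1.58 in AGY1611 and 1.08 and 1.03 in AGY1613. The value of AGY1611 in batch 2 was 0.81 without replicate 2 at generation 10, and still called (edgeR adjusted p = 0.0246). The difference between batches was not tested. The calls of HIS3 in AGY1612 and in AGY1613, AGY1859 and AGY1863 of batch 2 were each lost without at least 1 of the libraries left out in turn, in 5, 1, 2 and 7 such fits, while AGY1862 was called in 2. Summing A with B and C with D also ended the calls in AGY1612 and AGY1613 of batch 1.

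HIS5 encodes histidinol-phosphate aminotransferase, and the joint edgeR fit with TMM scaling called it in no strain. With library size alone it was called lower in AGY1613 of batch 1 (-0.61, edgeR adjusted p = 0.0453). In AGY1611 it split by set, as HIS6 did. A and B went from 127 and 154 CPM to 114 and 106 CPM, and C and D from 153 and 151 CPM to 297 and 237 CPM. In batch 2 replicate 3 of AGY1859 ended at 393 CPM, in contrast to the loss of HIS6 in the same culture, and replicate 2 of AGY1863 ended at 432 CPM. The fitted log2 changes of 0.82 (SE 0.31) in AGY1863 and 0.76 (SE 0.31) in AGY1859 were the highest of HIS5. The first was called in 11 of the 51 fits that left out a library of batch 2, and the second without replicate 2 of AGY1859 at generation 10. HIS5 was also called in AGY1611 and in AGY1613 of batch 1 without their replicate B at generation 10.

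HIS2 encodes histidinol-phosphate phosphatase and had the lowest median change of the 7 members tested. In AGY1614 it went from 155, 150, 139 and 175 CPM to 64.6, 53.0, 66.6 and 65.8 CPM, with all cultures below the starting range. AGY1611 of batch 1 ended at 80.5, 92.1, 90.6 and 86.8 CPM, from 133 to 151 CPM at the start. The mean log2 change of A and B less that of C and D was -0.06 in AGY1611 and -0.14 in AGY1614, against 1.44 and 1.60 for HIS3.

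AGY1612 and AGY1613 of batch 1 held the only 4 cultures in which HIS2 was higher. A and B of AGY1613 ended at 239 and 201 CPM and C and D at 33.9 and 39.0 CPM, from 131 to 150 CPM at the start. A and B of AGY1612 ended at 181 and 176 CPM and C and D at 61.2 and 66.5 CPM. The mean log2 changes of the sets were 0.64 and -1.93 in AGY1613 and 0.24 and -1.12 in AGY1612.

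In batch 2 HIS2 was lower in 18 of 18 cultures at generation 10, as were 6.77% of the barcodes tested. AGY1613 went from 140, 156 and 145 CPM to 16.8, 137 and 26.6 CPM. AGY1859 went from 80.4, 90.9 and 139 CPM to 11.6, 63.4 and 36.8 CPM. The fitted log2 changes were -1.26 (SE 0.51) in AGY1613 and -1.46 (SE 0.51) in AGY1859, and -0.48 to -1.11 in the other 4 strains, which ended between 46.8 and 87.7 CPM.

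HIS2 was called lower in AGY1614 of batch 1, at -1.32 (SE 0.42), and in AGY1859. The call in AGY1859 was lost in 24 of the 51 fits that left out a library. Without replicate 2 of AGY1613 at generation 10, HIS2 was called in AGY1613 of batch 2. Fits to AGY1611 alone called HIS2 lower in batch 1 (edgeR adjusted p = 0.00373) and in batch 2 (0.0457).

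GCN4, in AGY1611 of batch 1, showed the same split as HIS3. Its barcode went from 368, 372, 362 and 366 CPM to 927, 922, 371 and 333 CPM, so A and B ended far above the starting range and C and D near it. In AGY1614 it went from 380, 385, 374 and 363 CPM to 812, 793, 562 and 502 CPM. The fitted log2 changes were 0.80 (SE 0.22) and 0.83 (SE 0.22), and in the joint fit GCN4 was called in these 2 strains only. In fits to the generations of 1 strain alone, it was instead called in AGY1612 (0.44, edgeR adjusted p = 0.0119) and AGY1613 (0.41, 0.0132). In that setting AGY1611 was not called (0.79, 0.0976). With library size alone that of AGY1614 was 0.30 and not called. AGY1612 and AGY1613 ended at 411 to 592 CPM, with fitted changes of 0.41 and 0.42 (SE 0.22 each).

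In batch 2 GCN4 was higher in 9 cultures and lower in 9. AGY1611 went from 371, 357 and 355 CPM to 436, 875 and 261 CPM, and its replicate 2, the culture with 1200 CPM of HIS3, held the highest GCN4 level of the batch at generation 10. AGY1859 went from 365, 341 and 377 CPM to 212, 207 and 370 CPM. The fitted changes over the 6 strains were between -0.46 and 0.54 (SE 0.28 each), and none was called. Without replicate 3 of AGY1611 at generation 10, GCN4 was called in that strain.

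The rule that chose the members did not name the difference between strains in the change to generation 10. That difference is computed from changes that were already known, so the calls below are descriptions. In batch 1 the joint test over the 4 strains called HIS4 (adjusted p = 0.0139 by edgeR), HIS3 (0.0318) and HIS1 (0.0411), while 48.1% of all barcodes were called. All 5 calls between pairs of strains had the larger change in AGY1614. HIS4 changed more in AGY1614 than in AGY1611 by a log2 of 0.85 (SE 0.24, edgeR adjusted p = 0.00746), than in AGY1612 by 0.72 (SE 0.24, 0.0429) and than in AGY1613 by 0.73 (SE 0.24, 0.0219). HIS1 changed more in AGY1614 than in AGY1611 by 1.09 (SE 0.36, edgeR adjusted p = 0.0239), and HIS3 more than in AGY1612 by 1.41 (SE 0.45, 0.0346).

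The members' counts in these pairs stood against a large background. For AGY1614 against AGY1611, 2 of 7 members and 30.0% of all barcodes were called (12.8% higher in AGY1614). Against AGY1612 it was 2 members and 12.5% (8.28% higher), and against AGY1613 it was 1 member and 26.9% (12.0% higher). The pairs of AGY1612 with AGY1611 (23.7%), AGY1613 with AGY1611 (20.0%) and AGY1613 with AGY1612 (19.0%) called 0 members in edgeR, with 1, 1 and 0 at an unadjusted p under 0.05, and 0 in DESeq2. With the counts of each set summed, which leaves 2 replicates per strain, no member was called for a strain difference, and the 5 adjusted p-values were between 0.274 and 0.641 in edgeR. The differences themselves were about as large, at 1.11 for HIS1 and 0.86 for HIS4 against AGY1611, 1.54 for HIS3 and 0.77 for HIS4 against AGY1612, and 0.74 for HIS4 against AGY1613. Library size alone in place of TMM also left 0 of the 5, with HIS3 at 0.87 and HIS4 at 0.21 to 0.52. Of the 32 fits without 1 library, 21 lost the call of HIS4 against AGY1612, 11 that of HIS3, 3 that of HIS4 against AGY1613 and 2 that of HIS1. DESeq2 called 8 of the 42 comparisons between pairs (17.5% to 33.8% of all barcodes), with HIS1 against AGY1612 (1.02) and HIS1 (1.01) and HIS3 (1.22) against AGY1613 added. In the joint edgeR test, the 32 fits without 1 library lost the call of HIS1 in 21, of HIS3 in 4 and of HIS4 in 1.

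In batch 2 no member was called for a strain difference. The joint edgeR test over 6 strains called 6.22% of all barcodes, and 0 of the 7 members had even an unadjusted p under 0.05 (the lowest was 0.105, for HIS1), while DESeq2 called 0. Against AGY1611, the share of all barcodes called was 0.371% for AGY1613, 1.73% for AGY1859, 0.349% for AGY1860, 0.24% for AGY1862 and 0.393% for AGY1863. Of 35 comparisons of a member with AGY1611, 4 had an unadjusted p under 0.05 in edgeR, and DESeq2 called 0. These 4 were the smaller change of HIS3 in AGY1860, by -1.08 (SE 0.40, adjusted p = 0.26), and in AGY1862, by -0.90 (SE 0.40, 0.342), that of GCN4 in AGY1859, by -1.0 (SE 0.39, 0.218), and the larger one of HIS4 in AGY1862, by 0.92 (SE 0.42, 0.363). Without replicate 2 of AGY1611 at generation 10, those of HIS3 were -0.31 and -0.13 and that of GCN4 was -0.41, and without replicate 2 of AGY1862 that of HIS4 was 0.07.

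At generation 5 most cultures had a gain of HIS3 and a loss of HIS2. HIS3 was higher in 12 of 12 cultures, as were 3.21% of barcodes, with a median log2 change of 0.58 and a range of 0.19 to 1.63. It was at 280, 691 and 319 CPM in AGY1611, at 399, 394 and 360 CPM in AGY1613, at 328, 261 and 439 CPM in AGY1860 and at 357, 312 and 378 CPM in AGY1861. Replicate 2 of AGY1611 was thus already the highest at generation 5. HIS2 was lower in 11 of 12 cultures (median -0.63) and HIS4 was higher in 11 of 12 (median 0.35). Of all barcodes, 94.3% were higher in at least as many cultures as HIS2, and 8.82% in at least as many as HIS4. GCN4 in AGY1861 went from 412, 378 and 357 CPM to 361, 712 and 301 CPM, high in replicate 2 alone.

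No member was called at generation 5 in the joint edgeR fit, in AGY1611 (0.0% of all barcodes called), AGY1613 (0.0%), AGY1860 (7.32%) or AGY1861 (2.58%). Fits to generations 0 and 5 of a strain alone called HIS3 in AGY1613 (0.76, edgeR adjusted p = 0.0331) and HIS2 in AGY1861 (-0.94, 0.0472). An unadjusted p under 0.05 was found for 3 of 28, and DESeq2 called 0. The fitted log2 change of HIS3 was 0.97 (SE 0.28) in AGY1611, where it ranked 39 from the highest, 0.73 (SE 0.28) in AGY1613, 0.59 (SE 0.28) in AGY1860 and 0.57 (SE 0.29) in AGY1861. In AGY1860 it was not smaller than at generation 10 (0.50). AGY1861 depended on the scaling. With library size alone its changes shifted by a mean of -0.91, which put HIS3 at -0.31, HIS4 at -0.54, HIS5 at -0.67 and GCN4 at -0.70. In that setting HIS1 was at -1.01, HIS2 at -1.79 and HIS6 at -1.15, and these and GCN4 were called lower. The difference of AGY1861 from AGY1860 at generation 5 called 0 members and 1.53% of all barcodes in edgeR, with 0 members at an unadjusted p under 0.05 and 0 called in DESeq2.

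**Figure D4:**
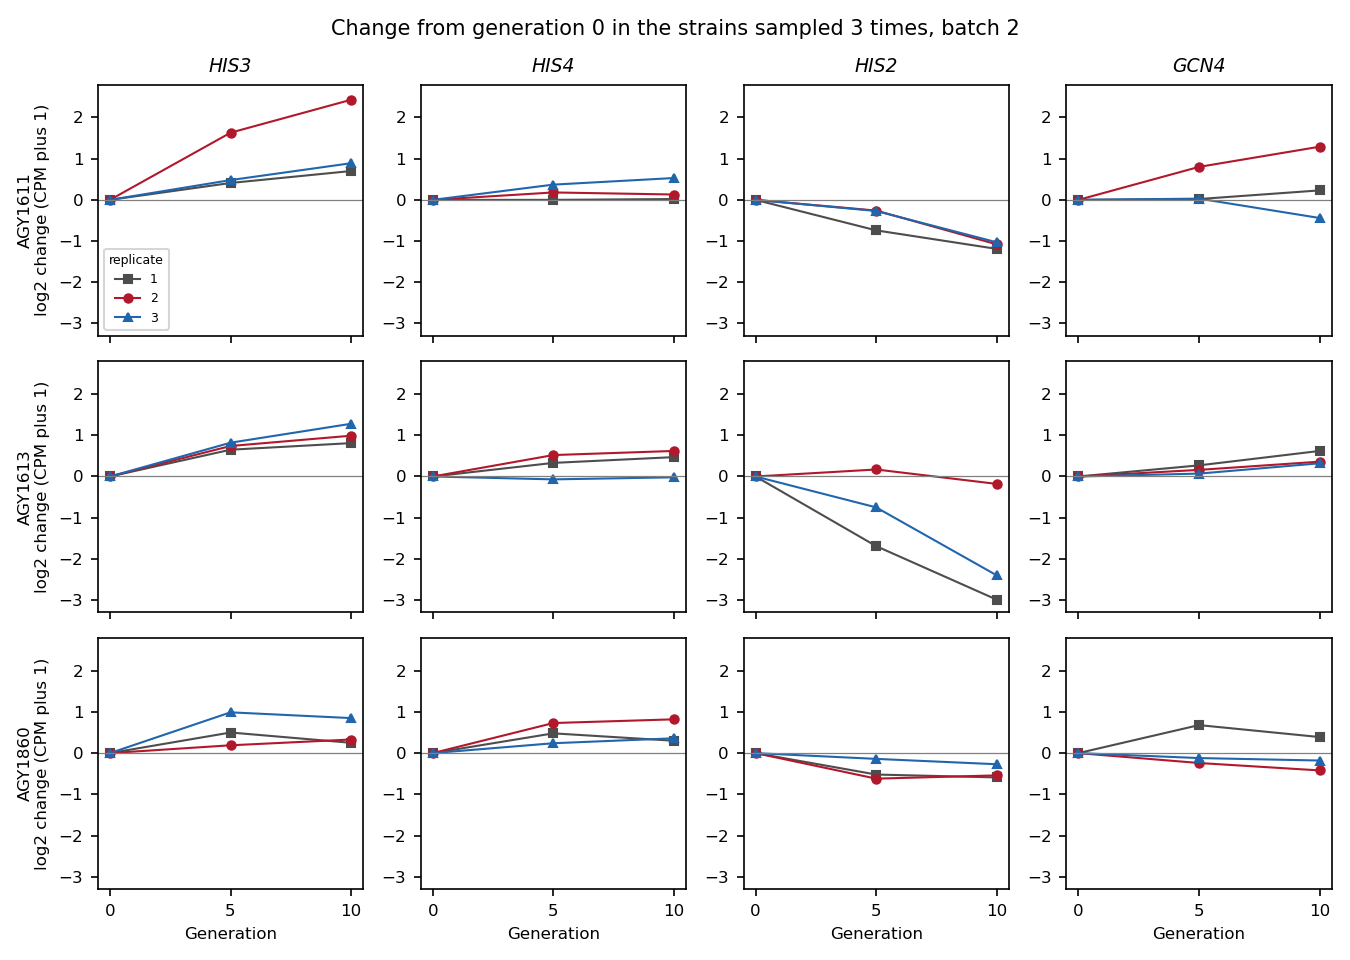
Log2 change from generation 0 (CPM plus 1) of HIS3, HIS4, HIS2 and GCN4 in the 3 strains of batch 2 sampled at generations 0, 5 and 10, with a line for each culture. HIS3 is above 0 at both later times in every culture shown, with replicate 2 of AGY1611 highest, and HIS2 is below 0 in all 9 cultures at generation 10.

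A barcode that changes at a constant rate doubles its log2 change from generation 5 to 10. For HIS3 the departure from that (generation 10 minus 2 times generation 5, relative to generation 0) was -0.37 (SE 0.48) in AGY1611, -0.44 (SE 0.48) in AGY1613 and -0.69 (SE 0.48) in AGY1860. A negative sign means less gain after generation 5 than before it, and in AGY1860 the mean went from 343 CPM at generation 5 to 321 CPM at generation 10. Each lay within 2 SE of 0, and the median over all barcodes was -0.13, -0.12 and -0.13. No member was called in edgeR, where 0.0655%, 0.0% and 0.0% of all barcodes were, none of 21 had an unadjusted p under 0.05, and DESeq2 called 0.

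HIS3 and GCN4 did not stand for the other members. Over the 34 cultures, the 21 pairs of members had Spearman correlations of the log2 change from -0.50 to 0.56, with a median of 0.05. HIS3 and GCN4 correlated at 0.44, with 0.66 in batch 1 and 0.05 in batch 2. HIS4 and HIS6 correlated at 0.56, with 0.50 and 0.59. HIS5 and GCN4 had the lowest value, -0.50. Cultures of a strain share that strain, and those of batch 1 fall into sets, so the points are not independent and no p is given.

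The barcodes most like HIS3 over the 34 cultures, out of 4322, were those of LPD1, a dihydrolipoamide dehydrogenase (Spearman 0.77), the protein kinase gene RCK1 (0.76) and BNI4, whose product anchors chitin synthase at the bud neck (0.75). The median over all barcodes was 0.03. LPD1 had a median log2 change of 0.88, close to that of HIS3, whereas RCK1 had 0.43 and BNI4 -0.06. Those most like GCN4 were the mitochondrial carrier gene OAC1 (0.80), the ubiquitin ligase subunit gene DSC2 (0.77) and the RNA polymerase II subunit gene RPB7 (0.76), with a median of 0.01 over all barcodes.

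Most calls of a gain among the histidine genes were those of HIS3. Counted over gene and strain at generation 10, the pathway had 6 calls higher and 1 lower of 24 in batch 1, and 5 higher and 1 lower of 36 in batch 2. Without HIS3 it had 2 higher and 1 lower of 20, and 1 higher and 1 lower of 30. Over all barcodes, 21.4% of comparisons were called higher and 24.8% lower in batch 1, and 5.69% and 11.2% in batch 2. The median log2 change of the 5 other genes tested was between -0.14 and 0.62 over the strains of batch 1 and between -0.40 and 0.43 over those of batch 2.

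Of genes of PRPP synthesis and of the link to purines, 4 comparisons were called higher and 11 lower of 36 in batch 1, and 2 and 11 of 48 in batch 2. Among these, BAS1, whose product activates HIS4 and purine genes, was called lower in every strain of both batches and made up 4 and 6 of the lower calls, with mean log2 changes of -2.35 and -2.75. Over all barcodes, 424 of 4615 were called lower in every strain of batch 1 and 140 of 4579 in every strain of batch 2. The same background applies to the genes named below as lower in every strain. The histidine transport genes had 2 called higher and 2 lower of 8 in batch 1 and 0 of 12 in batch 2.

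The genes that control GCN4 had 8 comparisons called higher and 5 lower of 36 in batch 1, and 4 and 6 of 54 in batch 2. GCN2, the kinase that raises GCN4 translation, was called lower in every strain of both batches, with mean log2 changes of -3.03 and -4.66. It made up 4 of the 5 lower calls in batch 1 and all 6 in batch 2. The GCN4 plasmid itself had means of 0.61 and 0.10, and was called higher in 2 of the 4 strains of batch 1.

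Other amino acid pathways that Gcn4 activates gave mixed counts. Lysine synthesis had 5 called higher and 4 lower of 24 in batch 1 and 3 and 1 of 36 in batch 2. Branched-chain synthesis had 8 and 3 of 32, then 2 and 2 of 48. Arginine synthesis had 6 and 9 of 32, then 2 and 6 of 54, and ARG3, the ornithine carbamoyltransferase, was lower in every strain of batch 1 (mean -1.89).

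Aromatic amino acid synthesis had the most calls, 14 higher and 18 lower of 44 in batch 1 and 7 and 20 of 66 in batch 2. The aminotransferase gene ARO9 was called lower in every strain of both batches (means -2.45 and -2.14). In batch 1, TRP3 of tryptophan synthesis (-2.63) and the chorismate mutase gene ARO7 (-1.75) were lower and the prephenate dehydratase gene PHA2 (0.84) was higher in every strain. Over all barcodes of that batch, 424 were called lower and 203 higher in every strain.

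**Figure D5:**
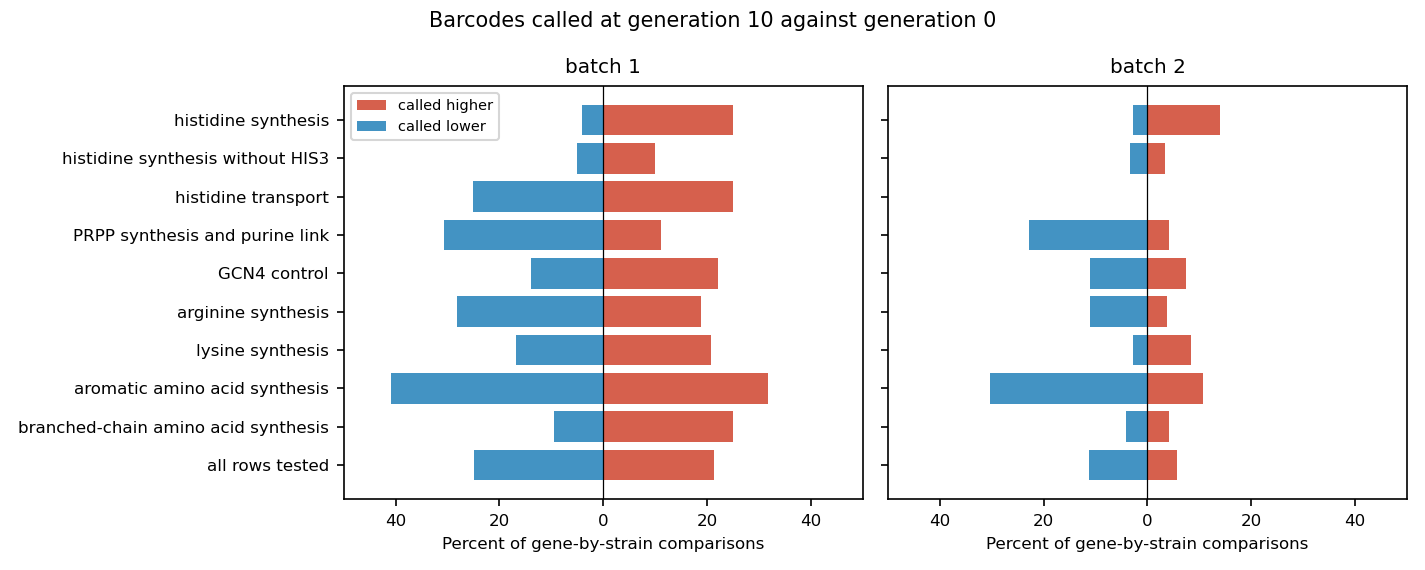
Percent of gene-by-strain comparisons called higher (right of 0) or lower (left of 0) at generation 10 against generation 0 in each gene list, with batch 1 on the left and batch 2 on the right. Histidine synthesis has 25.0% called higher in batch 1 and 10.0% without HIS3, and all barcodes tested have 21.4%; in batch 2 these are 13.9%, 3.33% and 5.69%.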

How the data were processed

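Plasmid barcodes were amplified with 20 PCR cycles, per the labels' protocols. The authors deposited a table of whole-number, unnormalized counts per barcode for each batch. The matching of reads to barcodes is not given in the sources used here. Members and gene lists were chosen with earlier results of these data known. Groups and replicates came from sample titles. Gene names came from the RefSeq table of assembly R64. The libraries of a batch were fitted jointly in edgeR 4.0.16 (R 4.3.3), with TMM scaling, filterByExpr (minimum count 10), a coefficient for each strain at each generation, quasi-likelihood F tests and Benjamini-Hochberg adjustment over all barcodes. This left 4615 barcodes in batch 1 and 4579 in batch 2. The empty vector was left out. Changes per culture are on the log2(CPM + 1) scale, which understates changes of rare barcodes. The limit for a count of 0 is 3 counts per library. It covers counting error only, because barcode reads were amplified by PCR with no molecular identifiers.

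The genes named were all members, listed genes called the same way in every strain of a batch (at most 4 per list), and the 3 barcodes with the highest Spearman correlation to HIS3 and to GCN4. Alternatives were DESeq2 1.42.0, its size factors, library size alone, other filters and pseudocounts, the empty vector kept, a block for each culture, summed cultures in batch 1, the libraries of a comparison alone, and each library left out. A replicate letter or number shared by generation 0 and later libraries was taken to pair them where all deviations from the group means correlated above 0.1. That held only in AGY1859, AGY1860 and AGY1863 (0.17 to 0.54). Replicates all differed by more than sampling noise. Tested on simulated data, the generation 10 fit of AGY1611 recovered 100% of 2-fold gains in batch 1 and 84% in batch 2, with 12 false calls each. The simulated replicates were independent, had the same spread for every barcode at a given time, and lacked the sets seen in batch 1. In the real data of batch 2, HIS2 was not called at -1.11 (SE 0.50) in AGY1611 and -1.26 (SE 0.51) in AGY1613. The recovery and the false calls therefore do not carry over to barcodes with a wide spread or to cultures in sets.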

Additional observations from a re-analysis of the deposited data

Results flagged for a closer look

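Of 56 groups of 4 cultures tested, 2 had a culture that stood apart from the others by Dixon's test, and chance gives about 1 in 20. The log2 change of HIS2 in AGY1611 of batch 1 was -0.59 in replicate C and -0.71 in each of the others. The log2 CPM of HIS5 at generation 0 in AGY1611 of batch 1 was 7.0 in replicate A, which was 127 CPM against 151 to 154 in the others.

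The difference between strains in the change to generation 10 passed the edgeR test in 5 comparisons of batch 1, all with AGY1614 higher. It was 1.09 for HIS1 and 0.85 for HIS4 against AGY1611, 1.41 for HIS3 and 0.72 for HIS4 against AGY1612, and 0.73 for HIS4 against AGY1613. None of these 5 was called with library size alone in place of TMM, or with the counts of each set summed. Library size alone shifted the changes of AGY1614 by a mean log2 of -0.52, the largest shift of batch 1. With TMM scaling, HIS1, HIS3 and HIS4 were each higher at generation 10 in 4 of 4 cultures of AGY1614.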

How the results depend on the processing

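The 9 member calls at generation 10 of batch 1 became 14 without the filter, 14 with the libraries of each comparison alone and 4 with the cultures summed in the sets A with B and C with D, 1 of which was HIS7. The 6 of batch 2 became 10 without the filter. The 0 at generation 5 became 4 with library size alone, 1 without the filter and 2 with the libraries of each comparison alone. The 3 in the joint test of batch 1 became 0 with library size alone and 0 with summed cultures. With a replicate block, in which each culture pairs its generation 0 and later libraries, the counts were 9 and 8 at generation 10 of batches 1 and 2, 0 at generation 5, and 2 and 0 in the joint tests. It ended the calls of HIS3 (1.14, adjusted p = 0.119 in edgeR) and HIS4 (0.66, 0.115) for AGY1614 against AGY1612, of HIS4 against AGY1613 (0.70, 0.0505) and of HIS3 in the joint test (0.115), and added HIS2 in AGY1613 (-1.86) and HIS3 in AGY1862 (0.63) of batch 2 at generation 10 and HIS1 for AGY1614 against AGY1613 (1.11). Leaving out 1 library gave 8 to 12 calls at generation 10 of batch 1, 4 to 8 of batch 2, and 0 to 3 in the joint test of batch 1. That test gave 0 without AGY1614 replicate B at generation 10, and 1 without replicate A at generation 10, C at generation 0 or D at generation 0. Leaving out 1 library left the counts at generation 5, for the rate, between starting pools and in the joint test of batch 2 at 0. The change of GCN4 in AGY1861 at generation 5, 0.27, became -0.70 with library size alone (edgeR adjusted p = 0.0256). The cause was not tested. With 3 replicates, smaller changes are missed: on simulated data batch 2 recovered 80% of 0.5-fold changes. Those data had the same spread for every barcode at a given time, so changes of barcodes with a wider spread can be missed more often. HIS7 is limited by depth.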
